A study of Homo sapiens with 9 samples.

Results

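The genes described here are 9 members of the RAS family of small GTPases: NRAS and HRAS, the R-Ras genes RRAS, RRAS2 and MRAS, RIT1, and the DIRAS genes DIRAS1, DIRAS2 and DIRAS3. They were taken by gene name from a table of 45754 genes, in which each has 1 row. DIRAS3 was selected on its FPKM values in the RSGL and control libraries, where its level was far lower with RSGL, so its values are a description and carry no test. The other 8 were chosen by name as its relatives, with results of these data known. RNA had been sequenced in 9 libraries from human cells labelled H441, a lung adenocarcinoma line, grown in RPMI medium. Controls received 0.1% DMSO for 24 h, and the other cells received 10 µM BSGL or 10 µM RSGL for 24 h, with 3 libraries per group. The labels describe neither the compounds nor whether the replicates were separate cultures. The p-values thus judge a difference against the spread between these libraries, which may be technical.

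A RAS protein is a switch that is on with GTP and off with GDP. Exchange factors load GTP, GTPase-activating proteins speed its hydrolysis, and lipid anchors hold most members at membranes, where the GTP-bound form engages effectors such as PI3-kinases and RAL exchange factors. In lung adenocarcinoma this pathway is often active through mutation. DIRAS3, also called ARHI, differs from the growth-promoting classical members: it is an imprinted gene, expressed from the paternal copy, whose protein has an extended N terminus, restrains growth and takes part in autophagy.

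The sample labels disagree on the cells. Each library carries the cell line tag H441. A separate genotype field reads A549 for those treated with RSGL and H460 for the remaining 6. By the labels alone, compound and tag cannot be told apart in any RSGL comparison. Of 7261 genes at 5 FPKM or more in every control library, 0 were under 0.1 FPKM in every RSGL library, and 0 of 7307 genes passed the reverse test (1 without control replicate 3). FPKM, the unit of the deposited values, is the number of fragments of a gene scaled to its length and to the depth of the library. Of 10 lung lineage markers known from H441, 0 passed the filter of 1 FPKM in at least 3 libraries, and NKX2-1 and SFTPB averaged 0.029 FPKM or less in each group. Of 5 epithelial markers, KRT8, KRT18, CDH1 and KRT19 passed the filter, at means of 651.1, 416.0, 8.01 and 2.05 FPKM in control, and EPCAM, at 0.363 FPKM, did not. Under RSGL the first 3 fell and KRT19 rose to 4.07 FPKM. Of the NRF2 targets that are high in KEAP1-mutant lines 12 of 13 passed, of which 10 fell under RSGL and 2, TXNRD1 and AKR1C1, rose. Over all tested genes, RSGL against control called 54.8%, 27.2% upward and 27.6% downward. The summed levels of the 13 were 2483 to 2519 FPKM in control, 2310 to 2376 under BSGL and 1684 to 1746 under RSGL, and those of the 5 epithelial markers, nearly all from KRT8 and KRT18, 1065 to 1093, 1056 to 1105 and 740.9 to 778.5 FPKM. Of 8 fibroblast, 6 endothelial and 8 leukocyte markers, 3 (LUM, COL1A1 and THY1), 0 and 1 (CD14) passed the filter. Their summed levels were 9.95 to 11.4, 0.0447 to 0.0983 and 2.30 to 2.62 FPKM in control. Under RSGL they were 7.92 to 8.21, 0.106 to 0.200 and 0.508 to 0.663 FPKM. The leukocyte sums hold 7 of the 8 markers. From control to RSGL, CD14 fell from a mean of 2.11 to 0.346 FPKM, COL1A1 from 2.22 to 0.668 and THY1 from 3.44 to 2.84. LUM, at 4.65 and 4.38 FPKM, was not called. CD3D and CD3E were at 0 in each library. The part of these differences in the results below was not tested. The libraries held 16720414 to 18738947 fragments in genes, recovered from the table.

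Promoter sequences of 4 of these genes are given, each around a listed start site. They come from RefSeq on GRCh38.p14, which held 7 of the 9 members, and run from 250 bases before a start site to 50 bases after it. These start sites lie inside the deposited gene positions. That of DIRAS3 is 68050627, while its deposited position reaches to 68051762, from which distances to its neighbours were measured. That of MRAS is 138348579, while its deposited position begins at 138347648. DIRAS3 is shown as the gene whose level was lowest against control under RSGL, DIRAS2 as its silent relative, MRAS (the first of 3 listed starts) as a gene that rose, and NRAS as one with no call.

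DIRAS3, chr1:68050578-68050877, minus strand: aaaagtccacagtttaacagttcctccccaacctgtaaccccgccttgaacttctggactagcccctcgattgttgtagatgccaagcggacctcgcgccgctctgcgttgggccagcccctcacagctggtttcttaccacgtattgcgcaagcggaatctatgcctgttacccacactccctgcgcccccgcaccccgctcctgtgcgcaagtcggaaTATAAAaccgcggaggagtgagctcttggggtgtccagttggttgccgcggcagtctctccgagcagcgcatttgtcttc
DIRAS2, chr9:90642775-90643074, minus strand: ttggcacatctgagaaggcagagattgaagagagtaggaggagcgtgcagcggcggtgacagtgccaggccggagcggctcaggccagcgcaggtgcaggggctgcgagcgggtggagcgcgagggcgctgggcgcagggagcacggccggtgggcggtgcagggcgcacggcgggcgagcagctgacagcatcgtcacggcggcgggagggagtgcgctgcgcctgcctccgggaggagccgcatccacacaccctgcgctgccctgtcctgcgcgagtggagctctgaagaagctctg
MRAS, chr3:138348329-138348628, plus strand: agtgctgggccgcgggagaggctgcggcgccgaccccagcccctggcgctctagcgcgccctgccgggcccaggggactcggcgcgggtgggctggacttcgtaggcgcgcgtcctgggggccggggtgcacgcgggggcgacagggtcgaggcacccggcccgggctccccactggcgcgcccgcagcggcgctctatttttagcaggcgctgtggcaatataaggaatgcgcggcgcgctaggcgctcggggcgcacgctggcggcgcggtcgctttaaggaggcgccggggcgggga
NRAS, chr1:114716722-114717021, minus strand: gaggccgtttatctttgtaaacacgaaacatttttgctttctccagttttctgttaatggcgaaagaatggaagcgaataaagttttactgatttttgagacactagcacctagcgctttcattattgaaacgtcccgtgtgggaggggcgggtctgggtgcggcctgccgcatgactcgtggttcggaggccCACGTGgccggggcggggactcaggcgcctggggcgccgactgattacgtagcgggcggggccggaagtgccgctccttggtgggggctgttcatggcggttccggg

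Capitals mark matches to 6 motifs searched on both strands: the TATA box TATAAA, the AP-1 site TGANTCA, the cAMP response element TGACGTCA, the CHOP-ATF4 composite element TGATGNAA, the E-box CACGTG and the E2F site TTTNNCGC. DIRAS3 had a TATA box at position -30 from its start site, a motif in 11.5% of 35116 promoters of this length. NRAS had an E-box at position -57, which 7.26% of promoters hold. The AP-1, cAMP response, CHOP-ATF4 and E2F letters stood in 7.71%, 1.85%, 3.62% and 6.89% of all promoters. In the promoters of MRAS, DIRAS2, RRAS2, RIT1 and HRAS listed, 0 of the 6 were found. The promoter of DIRAS3 had 21 CpG pairs and that of MRAS 44, beside a median of 14 over all promoters. These are matches of letters and not measured binding.

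In control cells the levels of the family spanned a wide range. RRAS was the highest at 49.9 ± 1.28 FPKM (SD, n = 3), followed by NRAS at 19.6 ± 0.498 and RRAS2 at 10.8 ± 0.164 FPKM. DIRAS3, at 9.29 ± 0.286 FPKM, and RIT1, at 9.01 ± 0.4998 FPKM, did not differ beyond their spread. MRAS stood at 2.46 ± 0.278 and DIRAS1 at 1.95 ± 0.156 FPKM, and the range of HRAS, 0.509 to 1.89 FPKM, overlapped that of DIRAS1. DIRAS2 was close to absent, with 3 fragments in all over the control libraries. By mean, DIRAS3 went from rank 4 in control to rank 8 under RSGL, where it overlapped HRAS and stood above DIRAS2 alone. The other genes kept their order, and DIRAS1 no longer overlapped HRAS.

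**Figure D1:**
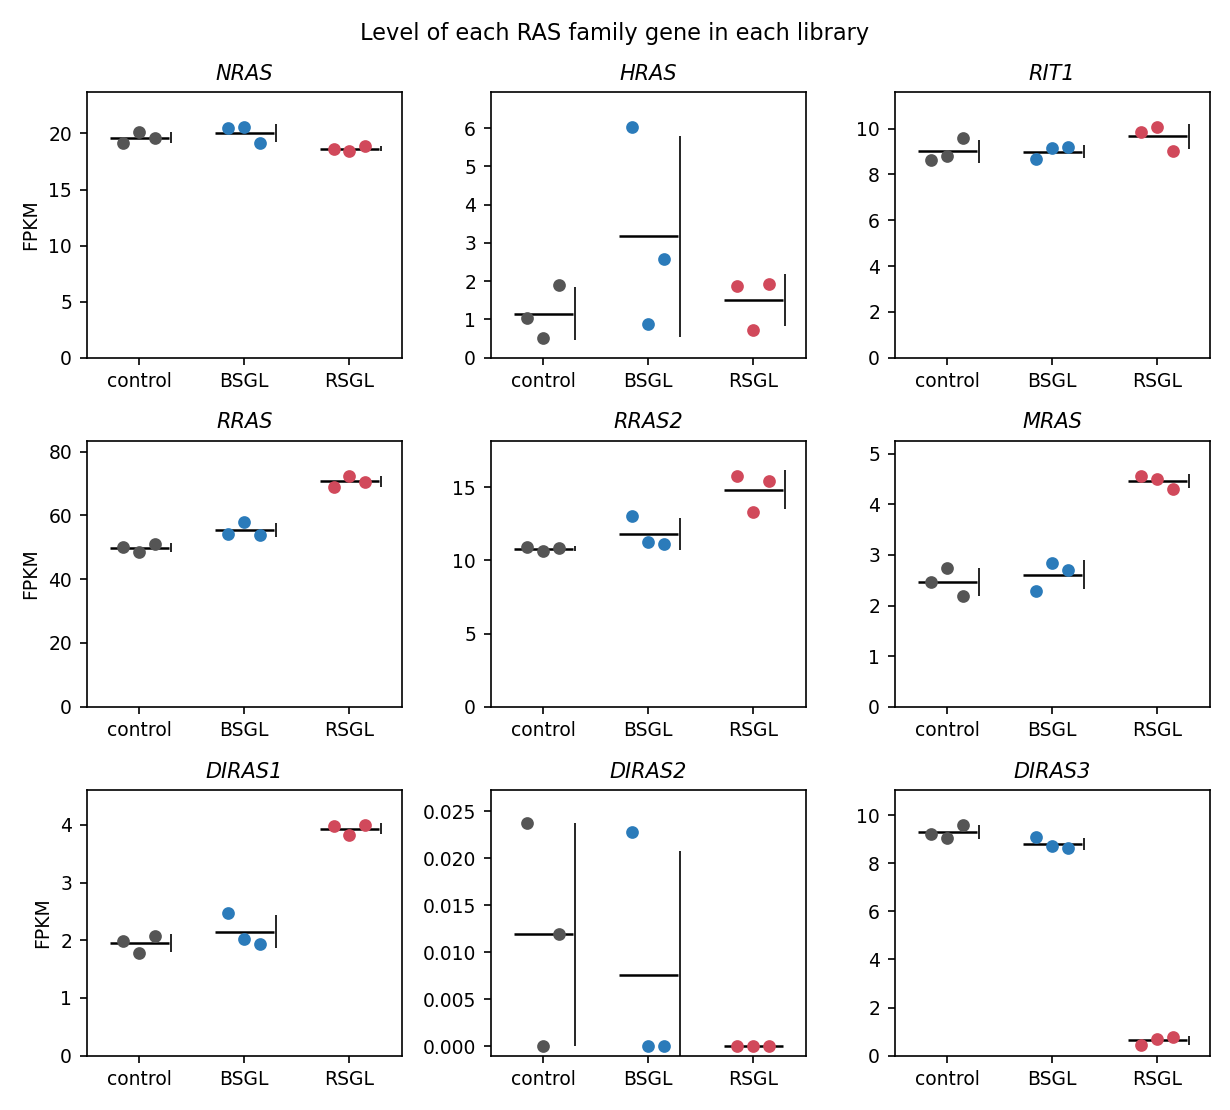
Level of each of the 9 genes in FPKM (vertical axes, each from about 0) in the control, BSGL and RSGL libraries; points are libraries, horizontal lines group means and vertical lines 1 SD (n = 3). The 3 RSGL libraries of DIRAS3 sit between 0.424 and 0.796 FPKM, below all others, while those of RRAS, RRAS2, MRAS and DIRAS1 sit above all others. For RSGL against control, the libraries of 61.2% of all genes did not overlap.

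DIRAS3 (gene ID 9077) lies on the minus strand of chromosome 1 at 68045962 to 68051762. Its 3 control libraries were at 9.20, 9.06 and 9.61 FPKM and its 3 BSGL libraries at 9.10, 8.73 and 8.62 FPKM. The 3 RSGL libraries were at 0.424, 0.705 and 0.796 FPKM, from 22, 33 and 38 fragments against 463 to 478 in the control libraries. Control and BSGL overlapped, and the RSGL libraries lay far below both. The mean under RSGL, 0.642 ± 0.194 FPKM (SD, n = 3), was 14.5-fold lower than in control and 13.7-fold lower than under BSGL. On the scale of log2(FPKM + 1), which understates changes of low values, the difference from control was -2.65, and with a pseudocount of 0.1 it was -3.70. Among the 12775 genes tested it was the fourth lowest difference, between MIR6075 at -2.77 and CPS1 at -2.65. In bulk RNA, fewer cells that express a gene and less RNA per cell cannot be told apart.

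GNG12-AS1, a long noncoding RNA on the opposite strand, spans the whole of DIRAS3. It was at 0.181 to 0.301 FPKM in control, 0.299 to 0.355 under BSGL and 0.149 to 0.536 under RSGL, from 6 to 22 fragments per library. Whether the counting used strand is not stated in the labels, so reads of the pair may have been mixed. The level of GNG12-AS1 was far under that of DIRAS3 in control, and the groups overlapped.

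DIRAS1 and DIRAS2 are relatives of DIRAS3 that hydrolyse GTP poorly and have been described, like DIRAS3, as growth restraining. DIRAS1 (148252; chromosome 19, 2714567 to 2721392) was at 1.99, 1.77 and 2.07 FPKM in control, 2.47, 2.03 and 1.94 under BSGL and 3.98, 3.83 and 4.005 under RSGL. It rose under RSGL, with a mean 2.02 times that of control and no overlap (log2 difference 0.75, SE 0.0723, 95% interval 0.58 to 0.91, adjusted p = 1.56e-05 by limma with Benjamini-Hochberg adjustment over all genes). The direction is opposite to that of DIRAS3. For RSGL against control, the libraries of 61.2% of all genes did not overlap. DIRAS2 (54769; chromosome 9, 90609832 to 90643105) had 2, 0 and 1 fragments in control, 2, 0 and 0 under BSGL and 0 in each RSGL library, where a count of 0 allows up to 3 fragments or 0.0345 to 0.0382 FPKM. It passed no filter and was not tested. DIRAS3 made up 82.0 to 83.6% of the summed FPKM of the DIRAS genes in control, 78.5 to 81.6% under BSGL and 9.64 to 16.6% under RSGL. The sum itself was 11.2 ± 0.433 FPKM in control and 4.58 ± 0.202 FPKM under RSGL (SD, n = 3). Because DIRAS3 was selected for its low RSGL level, the lower share and sum under RSGL restate that choice.

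Under RSGL 4 of the 7 members tested beside DIRAS3 passed, all upward, and 0 fell, in a comparison that called 54.8% of all genes, 27.2% upward and 27.6% downward. These were DIRAS1 and the R-Ras genes RRAS, RRAS2 and MRAS. With this background the count describes the members and shows nothing particular to the family. NRAS, RIT1 and HRAS did not pass.

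RRAS (6237; chromosome 19, 49635292 to 49640143) encodes R-Ras, known for promoting integrin adhesion. It was at 50.2, 48.5 and 51.0 FPKM in control, 54.2, 58.0 and 54.0 under BSGL and 69.0, 72.5 and 70.5 under RSGL. The 3 groups did not overlap, with RSGL highest and BSGL between, where for RSGL against control the libraries of 61.2% of all genes did not overlap. RSGL stood above control by 0.49 on the log2 scale (SE 0.0375, 95% interval 0.41 to 0.58, adjusted p = 2.80e-06). For BSGL the difference of 0.15 (95% interval 0.06 to 0.23) did not pass over all genes (adjusted p = 0.368), in a comparison where the libraries of 12.8% of all genes did not overlap.

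RRAS2 (22800; chromosome 11, 14277920 to 14364506) encodes TC21, which engages PI3-kinase. Its libraries were at 10.9, 10.6 and 10.8 FPKM in control, 13.1, 11.2 and 11.1 under BSGL and 15.8, 13.3 and 15.4 under RSGL. The 3 groups did not overlap, though RSGL replicate 2 was close to BSGL replicate 1. The share of all genes without overlap was 12.8% for BSGL against control and 61.2% for RSGL against either group. The BSGL difference from control, 0.11 (95% interval -0.05 to 0.27), did not pass (adjusted p = 0.853). RRAS2 rose by 0.42 under RSGL (SE 0.0716, 95% interval 0.26 to 0.58, adjusted p = 0.000693).

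MRAS (22808; chromosome 3, 138347648 to 138405535) encodes the member that joins SHOC2 and protein phosphatase 1 in a signalling complex. Its libraries were at 2.46, 2.74 and 2.19 FPKM in control, 2.29, 2.84 and 2.71 under BSGL and 4.57, 4.497 and 4.31 under RSGL. Control and BSGL overlapped, and RSGL was 1.81 times control. The log2 difference was 0.66 (SE 0.0760, 95% interval 0.49 to 0.83, adjusted p = 5.32e-05). Summed over RRAS, RRAS2 and MRAS, the level was 61.9 to 64.1 FPKM in control, 67.8 to 72.0 under BSGL and 89.4 to 90.3 under RSGL.

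NRAS (4893; chromosome 1, 114704464 to 114716894), a classical RAS gene, stayed within a narrow range. It was at 19.1, 20.1 and 19.6 FPKM in control, 20.5, 20.6 and 19.1 under BSGL and 18.6, 18.4 and 18.9 under RSGL. The RSGL libraries lay just below the others. Against control, the libraries of 61.2% of all genes did not overlap. The log2 difference from control was -0.07 (95% interval -0.15 to 0.02, adjusted p = 0.160). RIT1 (6016; chromosome 1, 155897808 to 155911402), a member without the usual lipid anchor site, was at 8.64, 8.80 and 9.58 FPKM in control, 8.66, 9.15 and 9.19 under BSGL and 9.87, 10.1 and 9.03 under RSGL. These groups overlapped, and the difference of RSGL from control was 0.09 (95% interval -0.03 to 0.21, adjusted p = 0.173).

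HRAS (3265) cannot be read with the same trust. The table gives its row on an alternate locus of GRCh38 and has 0 rows for it on chromosome 11, where RefSeq places its start, so its reads could be split between copies of one sequence. HRAS was at 1.04, 0.509 and 1.89 FPKM in control, 6.04, 0.880 and 2.59 under BSGL and 1.88, 0.715 and 1.93 under RSGL. Replicates differed by several times within each group and the groups overlapped. The interval for RSGL against control, -1.002 to 1.47 on the log2 scale, includes both a rise and a fall of 2-fold (adjusted p = 0.731). In the table, 1282 protein-coding rows lie on such loci or on unplaced scaffolds.

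Under BSGL 0 of the 7 members passed, in a comparison that called 0.0861% of all genes, 0.0470% upward and 0.0391% downward (11 genes, and 0 to 8 on leaving out any 1 library). At an unadjusted p under 0.05 there was 1 by limma, RRAS, where 857 of all 12775 genes (6.71%) had such a p, and limma-voom on recovered fragments also called 0. Differences from control ranged from -0.00046 for RIT1 to 0.15 for RRAS among the tested members other than HRAS, and the intervals of NRAS (-0.06 to 0.12), RIT1 (-0.12 to 0.12), MRAS (-0.11 to 0.23), DIRAS1 (-0.07 to 0.26) and RRAS2 (-0.05 to 0.27) leave out a change of 2-fold. For HRAS the interval, -0.43 to 2.04, was wide. DIRAS3 differed by -0.07, given without a test since its control libraries entered its choice.

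BSGL and RSGL were applied at the same dose and for the same time, which allows 1 direct comparison of the compounds. It shares its RSGL libraries with the comparison against control. RSGL exceeded BSGL in RRAS (log2 0.35, SE 0.0375, adjusted p = 3.66e-05), RRAS2 (0.31, SE 0.0716, adjusted p = 0.00481), MRAS (0.60, SE 0.0760, adjusted p = 0.000110) and DIRAS1 (0.65, SE 0.0723, adjusted p = 4.31e-05). That was 4 of 7 members, where 54.0% of all genes were called, 26.5% upward and 27.5% downward. The difference did not pass for NRAS (-0.10, 95% interval -0.18 to -0.01, adjusted p = 0.0524), RIT1 (0.09, -0.03 to 0.21) or HRAS (-0.57, -1.81 to 0.66). Without BSGL replicate 3, NRAS passed downward (-0.13, adjusted p = 0.0200).

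**Figure D2:**
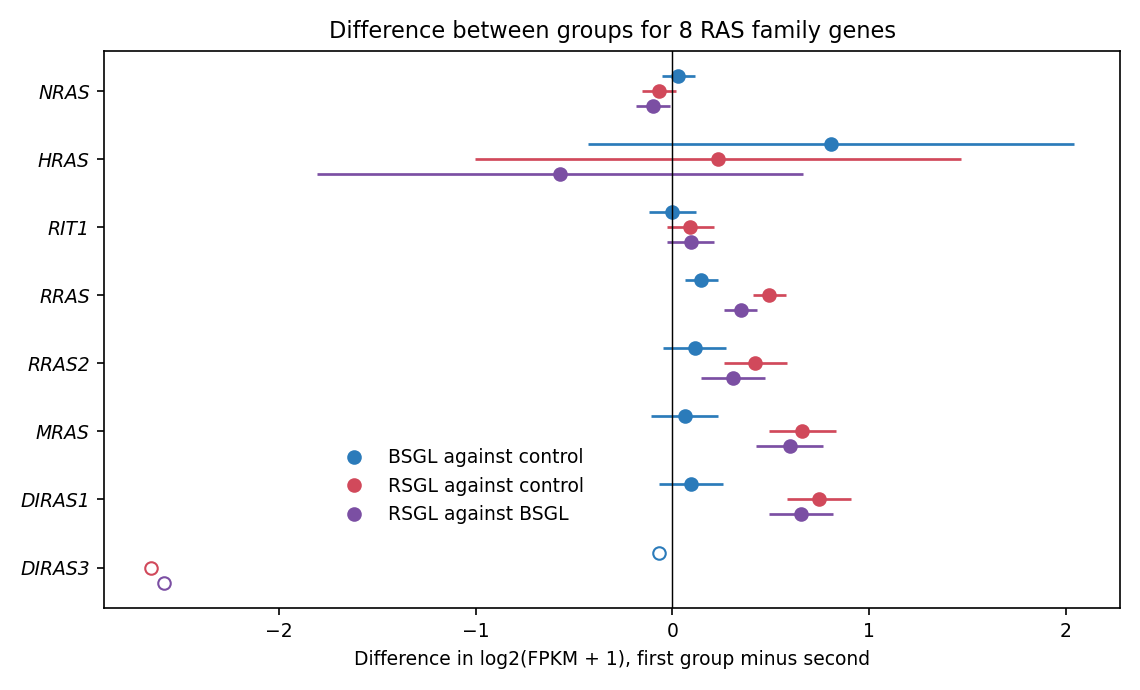
Difference in log2(FPKM + 1) between groups (horizontal axis) for the 8 genes that passed the filter; filled points are estimates with 95% intervals from limma, and open points, for DIRAS3, are differences shown without a test. Under RSGL, RRAS, RRAS2, MRAS and DIRAS1 lie above 0 by 0.42 to 0.75, DIRAS3 lies at -2.65, and the intervals of HRAS are wide.

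Around the members, the genes of the RAS cycle were taken from lists by role. Under BSGL 0 of their 73 tested genes passed by limma or by limma-voom, in a comparison where limma called 0.0861% of all genes. Of the 73, 2, ICMT and RBX1, had an unadjusted p under 0.05 by limma, as did 6.71% of all genes. Under RSGL the median difference of all tested genes was -0.00085, and each list is read beside that value and beside the 54.8% called.

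Of 26 other Ras family GTPases 14 were tested, of which 6 rose and 3 fell (median 0.09). GEM, a GTPase that inhibits calcium channels, rose most, from 5.25 to 17.9 FPKM (log2 1.61, SE 0.116, adjusted p = 4.52e-06). RHEBL1, a relative of the mTORC1 activator RHEB, rose from 1.79 to 2.82 FPKM, and RALA, which acts in exocytosis, from 14.6 to 19.5 FPKM. RASL11A fell from 2.36 to 1.37 FPKM, RRAD, a relative of GEM, from 3.94 to 2.60 FPKM and RAP2B from 5.44 to 4.65 FPKM. GEM and RRAD therefore changed in opposite directions.

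Of 12 exchange factors 6 were tested, of which 2 rose and 0 fell (median 0.10). RASGRF2, a calcium-responsive exchange factor, rose from 3.72 to 7.06 FPKM (log2 0.77, SE 0.0514, adjusted p = 1.13e-06). RAPGEF2, which acts on RAP1, was the other (3.59 to 4.16 FPKM, adjusted p = 0.0201), and its call was lost without control replicate 1 or 3 or RSGL replicate 2 (adjusted p = 0.0587 to 0.0687). SOS1, the main exchange factor downstream of growth factor receptors, averaged 5.45 FPKM in control and 5.19 under RSGL and did not pass.

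Of 9 receptor adaptors 6 were tested, of which 3 rose and 2 fell (median 0.10), and 3 passed in all without control replicate 3, RSGL replicate 2 or RSGL replicate 3. The docking protein GAB2 rose from 2.26 to 4.22 FPKM (log2 0.68, SE 0.0559, adjusted p = 4.73e-06) and PTPN11, the phosphatase SHP2, from 37.9 to 41.9 FPKM. SHC1, an adaptor of growth factor receptors, fell from 76.2 to 67.5 FPKM. FRS3 (adjusted p = 0.0485) and FRS2 (adjusted p = 0.0302), adaptors of FGF receptors, were near the threshold. The call of FRS3, upward, was lost on leaving out any library but control replicate 2 or RSGL replicate 1 (adjusted p = 0.0621 to 0.179). That of FRS2, downward, was lost without control replicate 2 or 3 or RSGL replicate 2 or 3 (adjusted p = 0.0829 to 0.0854).

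Of 10 GTPase-activating proteins 6 were tested, of which 3 rose and 2 fell (median 0.24). RASA2 rose from 2.51 to 3.84 FPKM (log2 0.47, SE 0.0646), RASA1, the first RAS GAP to be known, from 7.96 to 9.83 FPKM and RASAL2 from 2.504 to 3.02 FPKM. DAB2IP fell from 3.06 to 2.12 FPKM (-0.38, SE 0.0580, adjusted p = 0.000341). NF1, which encodes neurofibromin, fell from 10.4 to 9.25 FPKM (adjusted p = 0.0221), a call lost without control replicate 1 or 2 or RSGL replicate 3 (adjusted p = 0.0501 to 0.0719).

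Of 12 genes of lipid attachment and membrane trafficking 11 were tested, of which 5 rose and 2 fell (median 0.09). LYPLA1, a thioesterase that removes palmitate, rose from 35.1 to 46.8 FPKM (log2 0.41, SE 0.0377, adjusted p = 1.16e-05). ABHD17C, another depalmitoylase, rose from 10.4 to 13.6 FPKM and ZDHHC9, a palmitoyltransferase of HRAS and NRAS, from 9.71 to 12.1 FPKM. ICMT, which methylates the prenylated end of RAS, fell from 24.1 to 19.8 FPKM (-0.27, SE 0.0392, adjusted p = 0.000240). ABHD17A fell from 9.55 to 8.37 FPKM (adjusted p = 0.0135), and without control replicate 1 this was lost (adjusted p = 0.0508).

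Of 23 effectors and kinases downstream 20 were tested, of which 7 rose and 3 fell (median 0.05). RGL3, an exchange factor for RAL, rose from 1.07 to 1.76 FPKM (log2 0.43, SE 0.115). It averaged 0.901 FPKM under BSGL, so its entry into the test may have leaned on RSGL, where it was high. Its call was kept in all 17 alternatives, which include no filter. AFDN, the junctional protein afadin, listed under its older symbol MLLT4, rose from 5.82 to 7.46 FPKM, and RALGDS, which activates RAL, from 3.88 to 5.04 FPKM. RASSF5 fell from 2.54 to 1.66 FPKM (-0.41, SE 0.0645, adjusted p = 0.000416) and RASSF1 from 8.72 to 7.57 FPKM. RASSF5 and RASSF1 belong to a family of RAS-binding proteins with growth restraining functions.

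Of 12 genes of the SHOC2 complex, scaffolds and the LZTR1 ligase 10 were tested, of which 2 rose and 5 fell (median -0.11). KSR1, a scaffold of the kinase cascade below RAS, fell from 7.82 to 4.64 FPKM (log2 -0.64, SE 0.0457, adjusted p = 1.75e-06). The phosphatase subunits PPP1CA, from 147.1 to 114.0 FPKM, and PPP1CC, from 75.1 to 58.4 FPKM, fell, while SHOC2 averaged 4.52 and 4.65 FPKM and did not pass. MRAS, the GTPase of that complex, rose. LGALS3, galectin-3, rose from 22.2 to 33.2 FPKM and IQGAP1 from 49.4 to 55.5 FPKM. LZTR1, the adaptor of a ligase that degrades RIT1 and MRAS, averaged 9.49 and 9.45 FPKM.

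**Figure D3:**
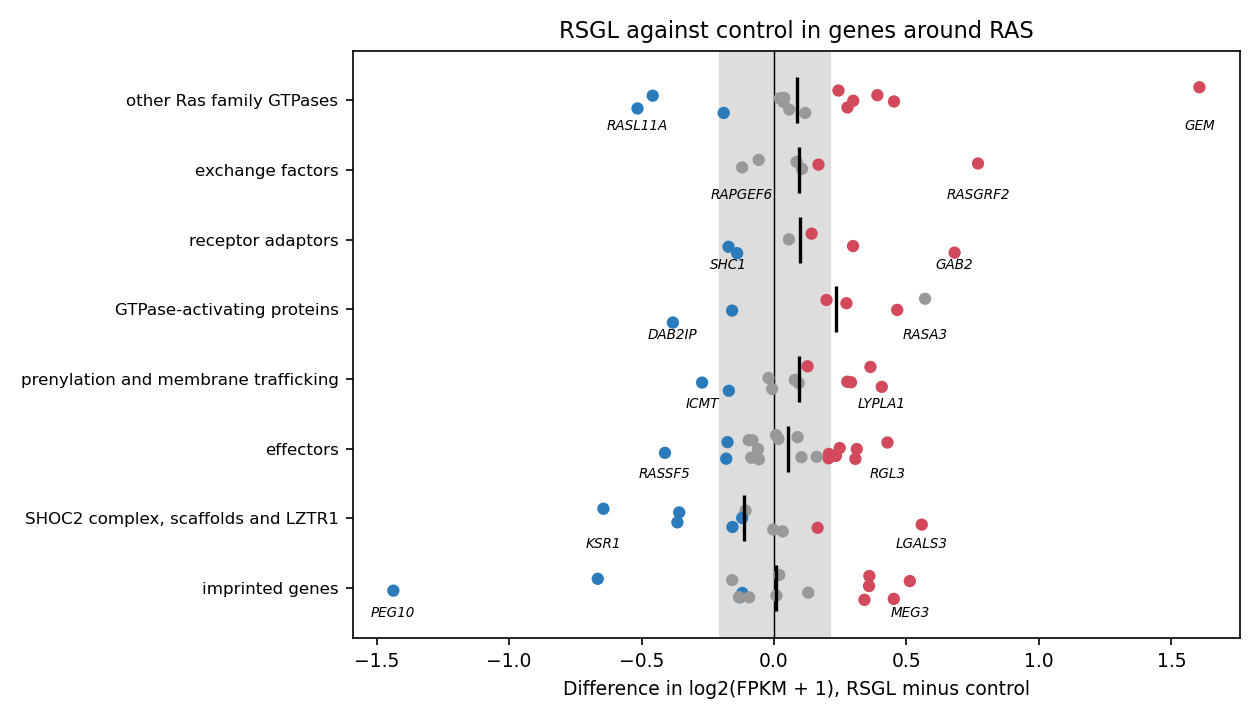
Difference in log2(FPKM + 1) between RSGL and control (horizontal axis) for tested genes of 8 lists; each point is a gene, red passed upward, blue passed downward and grey did not pass, black bars are list medians, vertical scatter has no meaning, and the grey band holds the middle part of all tested genes from the lower to the upper quartile. GEM at 1.61 and PEG10 at -1.44 lie farthest out, and list medians lie between -0.11 and 0.24.

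DIRAS3 is imprinted, so other imprinted genes were set beside it. Of 30 such genes 15 were tested, of which 5 rose and 4 fell under RSGL (median 0.01). This is near the background, where 54.8% of all genes were called, 27.2% upward and 27.6% downward, and shows nothing particular to imprinted genes. Under BSGL 0 passed by limma or limma-voom, in a comparison where limma called 0.0861% of all genes. FAM50B, 1 of the 15, had an unadjusted p under 0.05 by limma, as did 6.71% of all genes. PEG10, a retrotransposon-derived gene, fell from 47.5 to 16.9 FPKM (log2 -1.44, SE 0.0433, adjusted p = 6.27e-09), and NNAT, a membrane proteolipid, fell from 1.79 to 0.769 FPKM (-0.67, SE 0.149). NNAT averaged 1.82 FPKM under BSGL, so its entry into the test leaned on the groups where it was high. Its call was kept in all 17 alternatives, which include no filter. MEG3, a noncoding RNA, rose from 4.06 to 6.20 FPKM (0.51, SE 0.0855) and INPP5F, a phosphoinositide phosphatase, from 2.70 to 4.06 FPKM (0.45, SE 0.0586). BLCAP, downward (adjusted p = 0.0369), lost its call without control replicate 1 or 2, BSGL replicate 1 or RSGL replicate 1 or 2 (adjusted p = 0.0502 to 0.125). L3MBTL1, upward (adjusted p = 0.0402), lost its call without control replicate 1 or 3, BSGL replicate 1 or RSGL replicate 1 or 2 (adjusted p = 0.0520 to 0.144). It averaged 0.835 FPKM in control, 0.771 under BSGL and 1.34 under RSGL, so only its RSGL mean exceeded the filter of 1 FPKM. Its entry into the test thus leaned on the group where it was high. With no filter its call was lost as well (adjusted p = 0.0921 by limma).

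Within 500 kb of DIRAS3 the table lists 15 other genes, of which 4 passed the filter. GNG12, a G protein subunit whose start lies 218.0 kb away in the direction of transcription of DIRAS3, was at 43.6, 45.0 and 44.4 FPKM in control and 36.4, 33.8 and 34.0 under RSGL, and it fell (log2 -0.34, SE 0.0397, adjusted p = 5.36e-05). WLS, the carrier of secreted Wnt proteins on the other side, was at 13.2, 13.7 and 13.9 FPKM in control and 17.2, 16.3 and 17.8 under RSGL, and it rose (0.31, SE 0.0442, adjusted p = 0.000246). GADD45A, a stress-induced growth arrest gene, rose from 29.0 to 70.2 FPKM (1.25, SE 0.0711, adjusted p = 4.47e-07). DEPDC1, a gene of mitotic cells, fell from 14.5 to 8.29 FPKM (-0.74, SE 0.0517, adjusted p = 1.51e-06). The 4 neighbours thus went 2 up and 2 down, where 54.8% of all genes were called.

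**Figure D4:**
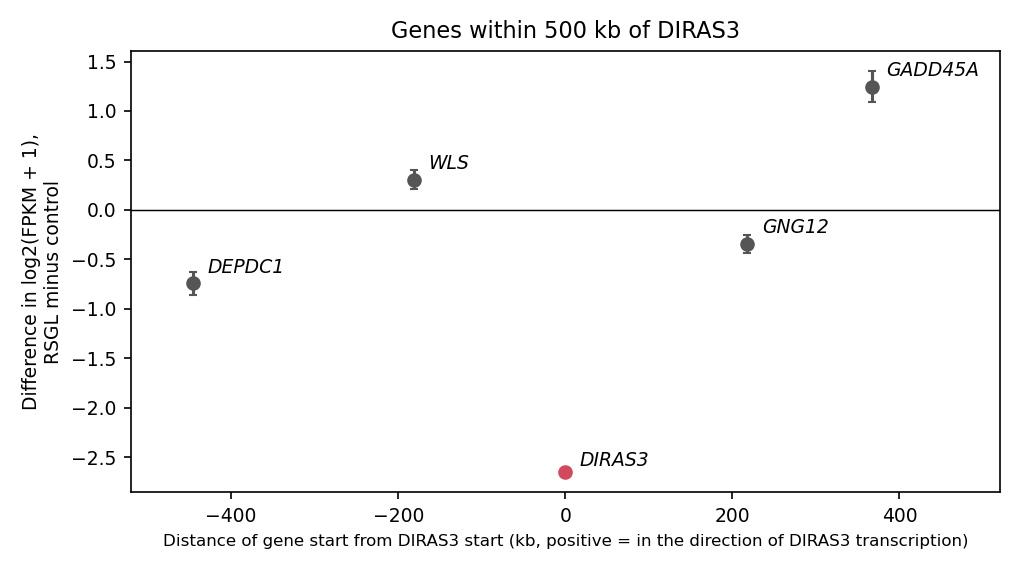
Difference in log2(FPKM + 1) between RSGL and control (vertical axis) against the distance of each gene's start from that of DIRAS3 in kb (horizontal axis); grey points are the 4 tested neighbours with 95% intervals, and the red point is DIRAS3, shown without a test. GADD45A and WLS lie above 0 and GNG12 and DEPDC1 below, with DIRAS3 lowest at -2.65.

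The protein-coding genes whose levels followed DIRAS3 most closely were found by the root mean square difference of log2(FPKM + 1) over the 9 libraries, after setting each gene's control mean to 0. CPS1, the urea cycle enzyme, was closest at 0.157, with 24.6 to 26.02 FPKM in control, 21.4 to 24.2 under BSGL and 2.96 to 3.604 under RSGL. IGFBP3, which binds insulin-like growth factors, followed at 0.267, from a mean of 138.9 FPKM in control to 28.7 under RSGL. EDN1, endothelin-1, was at 0.323 (30.9 and 6.23 FPKM), DIO2, a thyroid hormone deiodinase, at 0.336 (10.1 and 1.61 FPKM), and SAMD11 at 0.364 (10.4 and 1.51 FPKM). Under BSGL the libraries of SAMD11 (6.37 to 7.80 FPKM), IGFBP3 (124.1 to 129.0 FPKM) and CPS1 lay below all their control libraries, while those of EDN1 overlapped control, as did those of DIO2. For BSGL against control the libraries of 12.8% of all genes did not overlap. The 5 genes were chosen for their likeness to DIRAS3 over the same 9 libraries and carry no test.

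**Figure D5:**
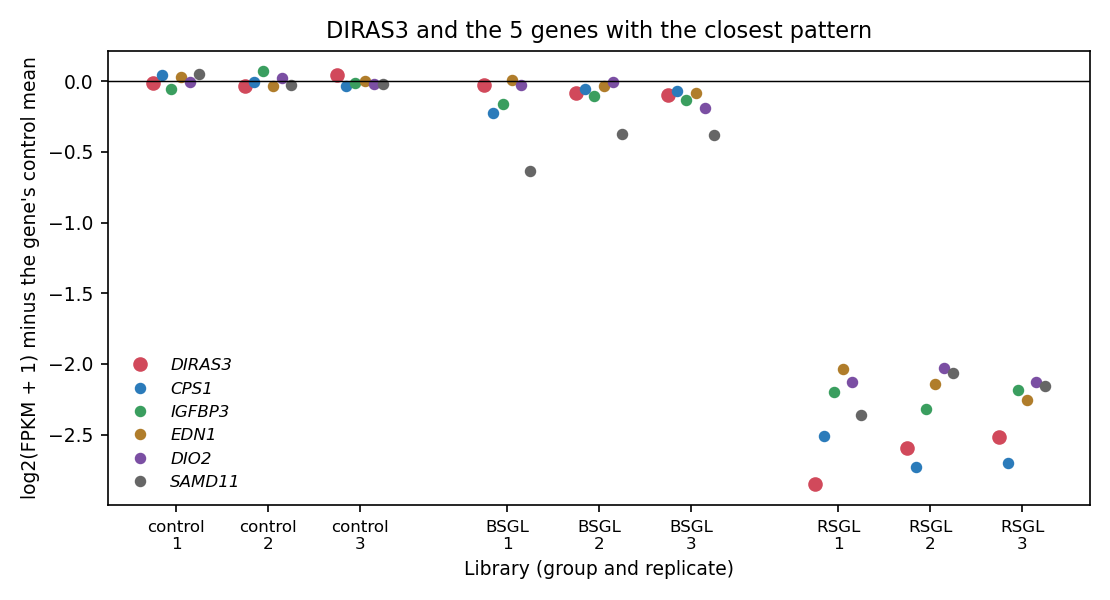
log2(FPKM + 1) minus each gene's own control mean (vertical axis) in each of the 9 libraries (horizontal axis, group and replicate) for DIRAS3 and the 5 closest genes. In control all lie near 0, under BSGL SAMD11 lies lowest, and under RSGL all 6 lie below -2.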

How the data were processed

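RNA from 9 libraries was sequenced after TRIzol extraction and NEBNext Ultra library preparation, per the labels' protocols. Tools named in the submitters' processing notes, with no role given, are DESeq2 1.16.1, HISAT2 2.0.5 and featureCounts 1.5.0-p3. The authors deposited FPKM per gene, per the file headers, with positions whose sequence accessions are those of GRCh38. The control columns name no compound and were matched to the control titles. FPKM times gene length fell on whole multiples of 1 step (within 0.01) for 100% of values under 300 fragments, which gave the fragment numbers. One fragment equalled 0.0249 to 0.0280 FPKM where a gene was 2 kb long. Floors and fragment numbers cover counting error only.

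Genes at 1 FPKM or more in at least 3 libraries (12775) were tested as log2(FPKM + 1) in R 4.3.3 by limma 3.58.1, helped by statmod 1.5.0, with 1 term per group over all libraries, with trend and robust options. Benjamini-Hochberg adjustment covered every tested gene, and calls needed an adjusted p under 0.05. Intervals are 95%. The pipeline was tested on simulated data. The members, the lists and the tests were chosen with earlier results of these data known. Named genes are the members, per list up to 3 called genes with the largest rise and up to 3 with the largest fall under RSGL (1 such gene is not reported here), tested genes within 500 kb of DIRAS3, and the 5 protein-coding genes closest to it in pattern. SOS1, PPP1CB, SHOC2 and LZTR1 were named beside the rule, after their values were seen. Promoters are RefSeq's, and amino acid sequences were not used here. Alternatives changed the pseudocount, filter, scaling, model options and libraries included.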

Additional observations from a re-analysis of the deposited data

How the results depend on the processing

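Under each of 17 alternatives the members called for RSGL against control stayed 4 in number, all upward, and for BSGL against control 0. For RSGL against BSGL they numbered 4, or 5 when NRAS was added without BSGL replicate 3 (4 to 5 on leaving out 1 library). Over the 7 tested members and the 3 comparisons, 356 of 357 values kept their side of the threshold and 1 gained a call (NRAS, above). The sign turned in 3, all for RIT1 under BSGL, from -0.00046 to 0.00032 with quantile scaling, 0.04 without control replicate 3 and 0.02 without BSGL replicate 1, with no call in any. Of 51 values of DIRAS3, which has no test, 4 moved beyond the replicate SD, from -2.65 to -3.70 against control and from -2.59 to -3.62 against BSGL with a pseudocount of 0.1, and to -3.90 and -3.82 with limma-voom on recovered fragments. Genes called for BSGL against control numbered 11 and fell to 0 with no filter, 0 with a replicate block and 0 with no trend or robust option (1601, 813 and 877 at an unadjusted p under 0.05 by limma), to 2 with only the compared groups, and rose to 31 with limma-voom; on leaving out 1 library they numbered 0 to 8. Without control replicate 3, 1 gene was on in RSGL and off in control (0 to 1 on leaving out 1 library). The replicate numbers showed no clear pairing. Correlations of same-numbered deviations ran from -0.21 to 0.12 and those of different numbers from -0.11 to 0.15. With 3 libraries per group, a weak pairing could not be told from none. The numbers are tied to no shared culture in the labels. Blocking on them left RSGL against control at 6792 calls of 7005, though FRS3, FRS2 and BLCAP lost theirs (adjusted p = 0.0547, 0.0580 and 0.0593) and the receptor adaptors called fell to 3. Exchange factors called rose from 2 to 4 with no filter, and receptor adaptors fell from 5 to 3 with only the compared groups. For the other 49 named genes, an extension chosen after seeing the data, 784 of 833 values were kept, 41 lost their call, 8 moved and 0 reversed. DIRAS2 and HRAS are limited by fragments, 0 to 2 and 25 to 303 per library.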
